A study of Mus musculus with 8 samples.

Results

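The genes described here are 34 genes of cholesterol and fatty acid synthesis, measured by RNA-seq in mouse embryonic fibroblasts (MEFs), connective tissue cells grown from embryos. They were chosen by name: the enzymes that build sterols, the regulators of the SREBP pathway, genes of sterol transport and efflux, and the enzymes that make, lengthen and desaturate fatty acids. The list was made with earlier results of these data known, so its counts beside all tested genes are descriptions. All 34 were found among the 49492 rows of the deposited table. Of these, 33 reached a value of 1 in 2 or more of the 8 samples and were tested among 16232 genes, and Abcg1 was not. The study asked which genes depend on arginine methylation of Pontin, an ATPase of chromatin remodelling complexes, when glucose is removed. All cells were Pontin f/f MEFs, made into a line by the 3T3 protocol, in which Cre deletes the endogenous gene, and they stably expressed Flag-tagged Pontin from a lentivirus, selected with hygromycin. The 4 groups, with 2 replicates each, were Pontin WT in normal medium, Pontin WT under glucose starvation, Pontin RA in normal medium and Pontin RA under glucose starvation. RA is the form in which the methylated arginines are replaced by alanine. Each genotype was 1 stably expressing line, so the line and the form of Pontin cannot be told apart, and how long these libraries were starved is not given in the sources used here. The study's general statement is that experiments were run independently, with more repeats than the 2 libraries of each group here, and neither it nor the labels say for these libraries that the 2 replicates came from separate cultures, so the p-values measure only the spread between these samples, which may be technical.

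Cholesterol is built from acetyl-CoA by the mevalonate pathway, which makes farnesyl diphosphate, and then by the sterol branch, which joins farnesyl units into squalene, closes the rings and trims lanosterol to cholesterol. Fatty acids are built from the same acetyl-CoA by carboxylation, chain growth, elongation and the insertion of double bonds. Genes of both routes are known targets of the SREBP transcription factors, which SCAP and the INSIG proteins hold in the endoplasmic reticulum when sterols are plentiful and which are cut free in the Golgi when sterols are scarce.

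Values are read counts over a library size that the authors scaled for each sample (CPM). The reads recovered from them summed to between 43205841 and 56363034 per sample, at which 3 reads correspond to a value of 0.0548 to 0.069, and read totals cover counting error only. Tests used limma on log2(value + 1), a scale on which the change of a low gene comes out too small. Cells in normal medium are called fed. A gene was called at a Benjamini-Hochberg adjusted p under 0.05 over all tested genes, and ± after a log2 difference is its SE. Ruvbl1, the gene of Pontin, had values of 28.4 and 27.6 in fed WT, 27.9 and 28.4 in starved WT, 36.8 and 32.05 in fed RA and 45.05 and 42.9 in starved RA, so that every RA sample lay above every WT sample. These reads can come from the added copy, so they do not check the genotype, and the part of this difference in the results was not tested. The summed value of the fibroblast markers was 5561 or more in all 8 samples. Not each marker was high, as Col3a1 was at 15.3 and 16.3 in starved WT and at 46.9 and 43.3 in starved RA. The adipocyte markers Adipoq, Plin1, Lep and Cidec were each at or under 0.0731, Cebpa at or under 0.329 and Fabp4 at or under 0.891. Pparg, also listed as an adipocyte marker, was higher, at 7.01 to 16.3. The hepatocyte markers Alb and Ttr were at or under 0.0419 and Apoa1 at or under 0.126.

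Most of the lipid synthesis genes were lower in WT cells under glucose starvation than in normal medium. Of the 33 tested, 27 fell and 2 rose, Scap and Ebp, while Mvd, Tm7sf2, Insig2 and Abca1 were not called. Over all tested genes 39.2% were called lower and 39.3% higher. The members' share of lower calls stood above that background and their share of higher calls below it. As the members were chosen with earlier results of these data known, the difference may come from the choice. The median log2 difference of the members was -1.46, against 0.00488 over all tested genes, and 20 members were at least 2-fold lower on that scale. In 28 of the 34 genes both starved WT samples lay below both samples in normal medium, in 4 they lay above and in 2 the groups overlapped. Such counts were not made over all genes, here or below, so they describe the members and cannot show that the members stand out. The median member kept 35.0% of its normal-medium value. These are bulk samples, in which fewer cells of a type and less RNA per cell cannot be told apart.

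In the RA cells 29 of the 33 genes fell and 2 rose, Scap and Tm7sf2, with Ebp and Abca1 not called. The background in that comparison was 33.7% called lower and 35% called higher. The median log2 difference was -0.81, against 0.0127 over all tested genes, 14 members were at least 2-fold lower, and the median member kept 56.6% of its normal-medium value. Both starved RA samples lay below both normal-medium samples in 29 of the 34 genes, above them in 3, and overlapped with them in 2, again without a count over all genes. Of the 31 calls, 3 were lost when 1 sample was left out. That of Scap was lost without RA starved replicate 2 (limma adjusted p = 0.0761), that of Insig2, a lower call, without RA starved replicate 1 (limma adjusted p = 0.0512), and that of Tm7sf2 was lost without RA normal replicate 1 (limma adjusted p = 0.221) and without RA starved replicate 2 (limma adjusted p = 0.105).

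**Figure D1:**
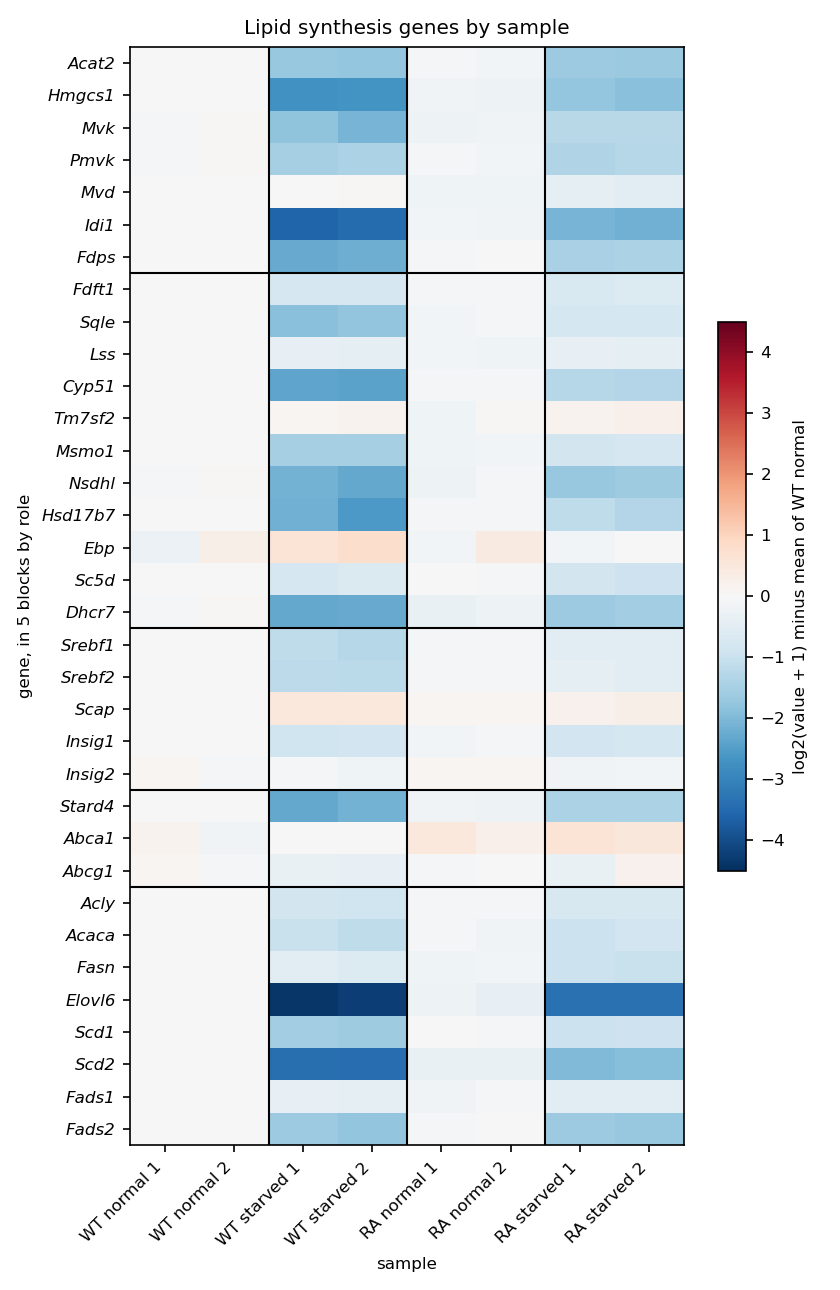
Heat map of the 34 genes (rows, in 5 blocks by role from the mevalonate steps at the top to fatty acid synthesis at the bottom) in the 8 samples (columns). Colour gives log2(value + 1) less the mean of the 2 WT samples in normal medium. Most rows are blue in the starved samples and deeper blue in starved WT than in starved RA, with Elovl6, Idi1 and Scd2 the deepest. Mvd, Tm7sf2, Scap, Insig2, Ebp and Abca1 stay pale or turn red in starved WT.

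The fall was smaller in RA for most of the genes. The interaction, which is the log2 response in RA less that in WT, was called higher for 21 of the 33 genes and lower for 4, Mvd, Ebp, Scap and Fasn. Over all tested genes 24.5% were called higher and 26.1% lower. When the values were scaled to total reads, the share of higher calls among all called genes moved from 48.4% to 58.1%. The median interaction of the members was 0.31, against -0.0107 over all tested genes. All 27 genes that fell in WT also fell in RA, and of these the interaction was called higher in 21, lower in Fasn and in neither direction in 5, namely Lss, Sc5d, Insig1, Fads1 and Fads2. In those 27 genes the RA response was between 0.313 and 1.49 of the WT response, with a median of 0.623. The same direction was common in the whole table: of 4439 genes that fell in both genotypes 40.3% had a higher interaction and the median ratio was 0.768, and of the 1610 that were also at least 2-fold lower in WT 76.3% had one and the median ratio was 0.592. For the members the corresponding figures were 77.8% of 27 genes, and 95% of the 20 genes that were at least 2-fold lower in WT, with a median ratio of 0.565. The interaction uses the samples that chose these genes, so the shares are descriptions. Across the 33 members the responses in the genotypes had a Pearson r of 0.91, a description over genes that share the 8 libraries. Of the weakest calls, that of Pmvk was lost without WT normal replicate 2, WT starved replicate 1, RA normal replicate 2 or RA starved replicate 2 (limma adjusted p = 0.108 to 0.148), that of Acat2 without WT normal replicate 2, RA normal replicate 2 or RA starved replicate 1 (limma adjusted p = 0.0532 to 0.0768), and that of Fdft1 without WT normal replicate 2 or RA starved replicate 2 (limma adjusted p = 0.08 and 0.102). The call of Pmvk was also lost with no filter (limma adjusted p = 0.0592) and in DESeq2 (adjusted p = 0.0654), and that of Fdft1 without the mean-variance trend (limma adjusted p = 0.0707).

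**Figure D2:**
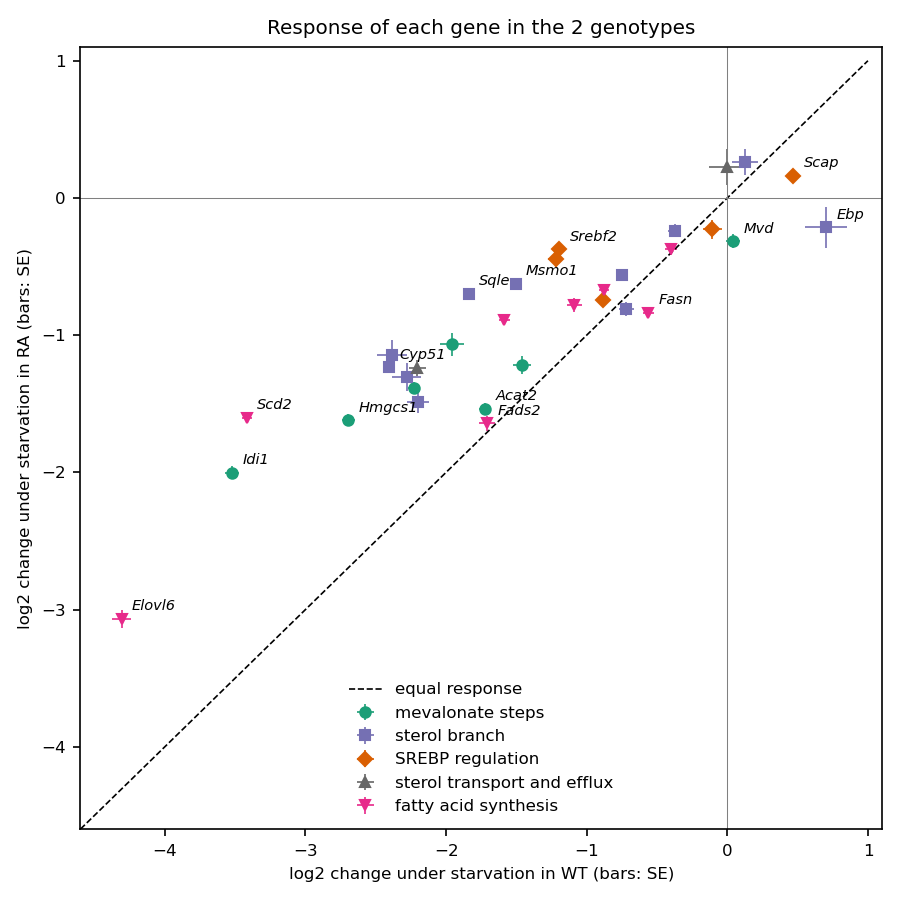
Log2 change under starvation in WT (x axis) and in RA (y axis) for the 33 tested genes, with symbols by role and bars of 1 SE. The broken line marks an equal response. Most genes lie in the lower left and above the line, as Scd2, Idi1 and Elovl6 do, whereas Fads2 and Acat2 lie near it and Fasn, Mvd and Ebp lie below it.

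The start regions of these genes can be read beside the responses. Promoter sequences, from 250 bases before to 50 bases after a start, were given by RefSeq (GRCm38.p6) for 26 of the 34 genes. They were searched on both strands for TCACNCCAC, a form of the sterol response element, for TCACNCC, which lies within it, for CCAAT, the NF-Y box that often accompanies SREBP sites, and for the GC box GGGCGG. Of the 26 genes, 20 held CCAAT, against 41.1% of 27025 genes with a promoter, and 22 held GGGCGG, against 38.2%. TCACNCC was found in 5, Acat2, Hmgcs1, Msmo1, Srebf2 and Insig2, against 17.6%, and TCACNCCAC in Hmgcs1 alone, against 1.44%. The 27025 genes were not limited to tested genes, whereas the 26 were all tested, so the shares compare unlike sets. No promoter was given for Fdps, Fdft1, Sqle, Stard4, Abcg1, Scd1, Scd2 and Fads1. A match is a description of letters, and its absence says only that these letters are not in the window. The stretches shown are those of the 6 genes that were called in the WT response and hold, before the start, either 3 or more CCAAT boxes or a CCAAT box together with TCACNCC. They lie upstream of the start and are written along the gene. Capitals mark the CCAAT box in either direction and the matches to either form of the sterol response element.
Hmgcs1, chr13:119690101-119690325 on the plus strand: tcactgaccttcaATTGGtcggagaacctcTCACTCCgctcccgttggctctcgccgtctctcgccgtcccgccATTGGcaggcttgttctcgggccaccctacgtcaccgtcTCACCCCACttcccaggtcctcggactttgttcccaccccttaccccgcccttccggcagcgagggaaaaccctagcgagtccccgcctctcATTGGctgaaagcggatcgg
Mvk, chr5:114444081-114444268 on the plus strand: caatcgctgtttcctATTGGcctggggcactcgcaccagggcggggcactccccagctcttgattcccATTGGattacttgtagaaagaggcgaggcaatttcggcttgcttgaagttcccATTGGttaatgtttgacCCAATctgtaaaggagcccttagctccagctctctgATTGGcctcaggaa
Hsd17b7, chr1:169969206-169969385 on the minus strand: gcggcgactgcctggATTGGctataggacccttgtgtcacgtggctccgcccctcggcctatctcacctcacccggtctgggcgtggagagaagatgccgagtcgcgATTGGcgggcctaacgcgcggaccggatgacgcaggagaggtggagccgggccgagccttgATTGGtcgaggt
Msmo1, chr8:64733614-64733770 on the minus strand: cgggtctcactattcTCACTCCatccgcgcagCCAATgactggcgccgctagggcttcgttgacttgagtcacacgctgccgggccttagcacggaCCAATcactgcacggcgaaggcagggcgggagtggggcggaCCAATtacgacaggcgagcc
Srebf2, chr15:82147092-82147153 on the plus strand: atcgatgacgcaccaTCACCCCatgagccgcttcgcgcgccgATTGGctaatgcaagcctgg
Fasn, chr11:120824587-120824652 on the minus strand: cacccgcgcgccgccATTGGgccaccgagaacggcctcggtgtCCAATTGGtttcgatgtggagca
The Hmgcs1 stretch holds TCACCCCAC beginning 137 bases before the start, and TCACTCC at 220. Hsd17b7, Mvk, Msmo1, Fasn and Hmgcs1 hold 3 or more CCAAT boxes in their stretches, with 5 in Mvk, and Srebf2 holds 1. Of the 3 boxes in Fasn, those at 62 and 59 bases before the start overlap, as CCAATTGG was counted in each direction. Fasn was shown only because both were counted. Of these 6 genes Fasn fell more in RA, and the other 5 fell less.

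Of the 7 enzymes of the mevalonate steps 6 fell in WT and all 7 in RA, and the 6 that fell in WT fell less in RA. Hmgcs1, the HMG-CoA synthase of the pathway, had values of 225 and 225 in fed WT, 33.6 and 34.1 in starved WT, 203 and 191 in fed RA and 65.9 and 60.9 in starved RA. Each starved sample lay below each sample in normal medium, and both starved RA samples lay above both starved WT samples. Hmgcs1 changed by -2.70 ± 0.045 (limma adjusted p = 4.09e-18) in WT and -1.62 ± 0.045 (limma adjusted p = 8.14e-15) in RA, and the interaction was 1.08 ± 0.064 (limma adjusted p = 6.38e-10). Idi1, the isomerase that makes dimethylallyl diphosphate, had values of 208 and 216 in fed WT, 16.6 and 18.4 in starved WT, 196 and 191 in fed RA and 48.5 and 46.5 in starved RA. Starved WT cells kept 8.28% of the normal-medium value and starved RA cells 24.6%, with no overlap between any of the starved and fed groups. Idi1 changed by -3.52 ± 0.05 (limma adjusted p = 4.32e-19) in WT and -2.00 ± 0.05 (limma adjusted p = 1.71e-15) in RA, with an interaction of 1.52 ± 0.07 (limma adjusted p = 2.03e-11). Fdps, the farnesyl diphosphate synthase, had values of 222 and 227 in fed WT, 46.1 and 48.2 in starved WT, 209 and 223 in fed RA and 80.8 and 83.05 in starved RA. The order of the starved groups was the same, and Fdps changed by -2.23 ± 0.043 (limma adjusted p = 1.82e-17) in WT and -1.39 ± 0.043 (limma adjusted p = 2.65e-14) in RA, with an interaction of 0.84 ± 0.06 (limma adjusted p = 7.19e-09). Fdps shares 1124 exon bases on the same strand with Gm43738 in GENCODE M21. The mean value of Gm43738 was 147, and reads in the shared bases may have been split between these genes. Hmgcs1 and Idi1 share 557 and 323 exon bases on the opposite strand with Gm48342 and Gm48574, which have no values here.

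Mvk, the mevalonate kinase, had values of 36.4 and 39.6 in fed WT, 10.1 and 8.08 in starved WT, 32.4 and 33.9 in fed RA and 15.3 and 15.3 in starved RA. It kept 23.9% in WT and 46.1% in RA, and its interaction was 0.89 ± 0.12 (limma adjusted p = 1.27e-05). Pmvk, which adds the next phosphate, and Acat2, the thiolase that joins acetyl-CoA units, fell by nearly as much in RA as in WT. Pmvk values were 39.1 and 41.5 in fed WT, 13.6 and 14.4 in starved WT, 38.5 and 36.7 in fed RA and 15.2 and 15.98 in starved RA, and the interaction was 0.24 ± 0.093 (limma adjusted p = 0.0382). Acat2 values were 104 and 106 in fed WT, 31.4 and 31.02 in starved WT, 98.4 and 96.3 in fed RA and 33.1 and 32.7 in starved RA, with an interaction of 0.19 ± 0.063 (limma adjusted p = 0.0206), and the starved RA samples lay just above the starved WT samples in both genes. Mvd, the decarboxylase that follows Pmvk, stood apart from its neighbours in the pathway. Its values were 44.5 and 45.4 in fed WT, 45.6 and 46.9 in starved WT, 39.6 and 39.6 in fed RA and 32.5 and 30.9 in starved RA. In WT the log2 difference of Mvd was 0.039 ± 0.051 (limma adjusted p = 0.488), which was not called, and in RA Mvd fell, with a log2 difference of -0.31 ± 0.051 (limma adjusted p = 3.89e-05). The interaction of Mvd was -0.35 ± 0.072 (limma adjusted p = 0.000677).

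**Figure D3:**
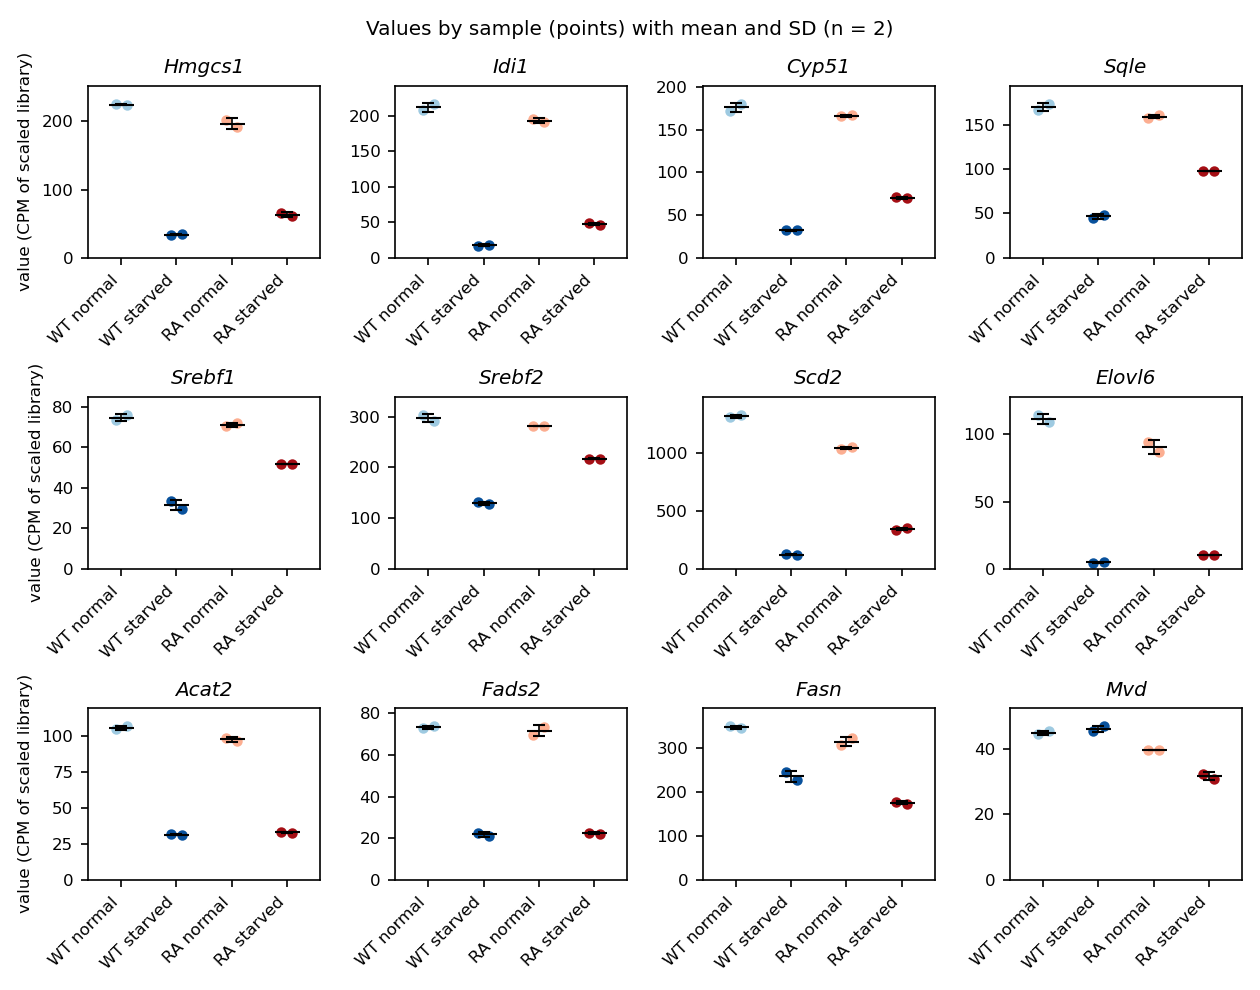
Values (CPM of the scaled library, y axis from 0, a scale for each gene) of 12 genes in the 4 groups. Points are samples and bars the mean and SD of 2. In Hmgcs1, Idi1, Cyp51, Sqle, Srebf1, Srebf2, Scd2 and Elovl6 the starved RA points sit above the starved WT points. In Acat2 and Fads2 the starved points sit at nearly the same height. In Fasn and Mvd the starved RA points sit below the starved WT points.

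In the sterol branch 9 of 11 genes fell in each genotype, and 7 had a higher interaction. The largest interactions were in Hsd17b7, a reductase that acts on the sterol C3 ketone, Cyp51, the lanosterol 14-demethylase, and Sqle, the squalene epoxidase. Cyp51 had values of 173 and 179.8 in fed WT, 32.9 and 32.1 in starved WT, 166 and 167 in fed RA and 71.3 and 69.5 in starved RA. Both starved RA samples were above both starved WT samples and below every sample in normal medium. Cyp51 changed by -2.40 ± 0.041 (limma adjusted p = 4.96e-18) in WT and -1.23 ± 0.041 (limma adjusted p = 7.88e-14) in RA, with an interaction of 1.17 ± 0.058 (limma adjusted p = 5.67e-11). Sqle had values of 167 and 173 in fed WT, 45.03 and 48.8 in starved WT, 158 and 161 in fed RA and 97.6 and 98.3 in starved RA. Starved WT cells kept 27.5% and starved RA cells 61.4% of Sqle. Sqle changed by -1.84 ± 0.044 (limma adjusted p = 2.83e-16) in WT and -0.70 ± 0.044 (limma adjusted p = 2.96e-10) in RA, and the interaction was 1.14 ± 0.062 (limma adjusted p = 1.67e-10). Hsd17b7 values were 28.00 and 27.5 in fed WT, 5.36 and 3.76 in starved WT, 26.6 and 26.2 in fed RA and 12.1 and 10.7 in starved RA. WT fell to single digits while RA did not, and the interaction of Hsd17b7 was 1.24 ± 0.15 (limma adjusted p = 5.15e-06).

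Dhcr7, which reduces 7-dehydrocholesterol in the last step to cholesterol, had values of 13.4 and 14.4 in fed WT, 2.05 and 2.08 in starved WT, 10.9 and 11.6 in fed RA and 3.84 and 4.05 in starved RA. These values are low, so the log2 scale understates the change, and the interaction was 0.98 ± 0.15 (limma adjusted p = 3.31e-05). Msmo1, the C4-methyl sterol oxidase, had values of 238 and 246 in fed WT, 84.7 and 84.7 in starved WT, 212 and 222 in fed RA and 137 and 143 in starved RA. Starved cells kept 34.96% of Msmo1 in WT and 64.6% in RA, and the interaction was 0.88 ± 0.056 (limma adjusted p = 1.73e-09). Nsdhl, the dehydrogenase that follows Msmo1, kept 20.2% in WT and 34.2% in RA, with an interaction of 0.71 ± 0.11 (limma adjusted p = 3.76e-05). Starved groups of Dhcr7, Msmo1 and Nsdhl did not overlap, with RA above WT in each. Fdft1, the squalene synthase that opens the sterol branch, had values of 110.1 and 114 in fed WT, 66.7 and 65.9 in starved WT, 104 and 106 in fed RA and 68.8 and 72.7 in starved RA. Its interaction was 0.18 ± 0.06 (limma adjusted p = 0.0177). Fdft1 shares 774 exon bases on the opposite strand with Ctsb, whose mean value was 592, and the handling of strand is not given in the sources used here.

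The other 4 genes of the branch did not have a higher interaction. Lss, the cyclase that forms lanosterol, kept 76.9% of its value in WT and 84.6% in RA, and the starved samples of the genotypes overlapped, between 54.8 and 58.6. Its interaction was 0.14 ± 0.068 (limma adjusted p = 0.107), which was called when the values were scaled to total reads (limma adjusted p = 0.0265) and without RA normal replicate 1 (limma adjusted p = 0.047). Sc5d, a sterol desaturase, kept 60.4% in WT and 56.6% in RA, with an interaction of -0.092 ± 0.074 (limma adjusted p = 0.313). Tm7sf2, a C14 sterol reductase, had values of 10.6 and 10.2 in fed WT, 11.3 and 11.7 in starved WT, 9.10 and 10.8 in fed RA and 11.8 and 12.3 in starved RA. Its WT response of 0.13 ± 0.094 (limma adjusted p = 0.22) was not called and its RA response of 0.26 ± 0.094 (limma adjusted p = 0.02) was. Tm7sf2 shares 532 exon bases on the same strand with Vps51, whose mean value of 42.7 was above every value of Tm7sf2. On the opposite strand Lss shares 381 with 4930483K19Rik and Cyp51 shares 166 with Akap9. Ebp, the sterol isomerase, had values of 13.4 and 19.7 in fed WT, 25.6 and 28.7 in starved WT, 14.8 and 21.8 in fed RA and 14.8 and 15.9 in starved RA. The replicates in normal medium differed widely, and both starved WT samples lay above every other sample. Ebp rose in WT by 0.70 ± 0.15 (limma adjusted p = 0.000413), its RA response was -0.22 ± 0.15 (limma adjusted p = 0.215), and the interaction was -0.92 ± 0.21 (limma adjusted p = 0.00181). The RA response of Ebp was called lower without RA normal replicate 1 (limma adjusted p = 0.00718), and its interaction was not called with no filter on low values (limma adjusted p = 0.0518).

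The genes of the SREBP factors fell with the enzymes and fell less in RA. Srebf2, which encodes the factor mainly known for sterol genes, had values of 302 and 292 in fed WT, 131 and 127 in starved WT, 282 and 281 in fed RA and 217 and 216 in starved RA. Replicates were close, both starved WT samples lay lowest, and both starved RA samples lay between them and the normal-medium samples. Srebf2 changed by -1.20 ± 0.037 (limma adjusted p = 8.55e-15) in WT and -0.37 ± 0.037 (limma adjusted p = 9.86e-08) in RA, with an interaction of 0.82 ± 0.052 (limma adjusted p = 1.4e-09). Srebf1, whose products act mainly on fatty acid genes, had values of 73.3 and 75.6 in fed WT, 33.2 and 29.7 in starved WT, 70.3 and 71.7 in fed RA and 51.8 and 51.8 in starved RA. Its order of groups was the same. Srebf1 changed by -1.22 ± 0.053 (limma adjusted p = 9.4e-13) in WT and -0.45 ± 0.053 (limma adjusted p = 1e-06) in RA, with an interaction of 0.77 ± 0.075 (limma adjusted p = 2.7e-07). Scap, the escort that carries SREBP to the Golgi, moved the other way. Its values were 56.2 and 58.6 in fed WT, 79.3 and 80.02 in starved WT, 60.4 and 60.9 in fed RA and 66.1 and 69.8 in starved RA. Scap rose in both genotypes, by 0.47 ± 0.045 (limma adjusted p = 5.27e-08) in WT and 0.16 ± 0.045 (limma adjusted p = 0.00468) in RA, and rose less in RA, with an interaction of -0.31 ± 0.064 (limma adjusted p = 0.000809). Scap shares 985 exon bases on the opposite strand with 5830462I19Rik, whose mean value was 11.7, and Srebf1 shares 109 with Rai1. Insig1, which retains SCAP and is itself an SREBP target, had values of 61.6 and 60.8 in fed WT, 32.1 and 33.2 in starved WT, 55.9 and 58.1 in fed RA and 32.8 and 34.5 in starved RA. The starved samples of the genotypes overlapped, and the interaction of Insig1 was 0.14 ± 0.071 (limma adjusted p = 0.106). Total-read scaling brought a call for Insig1 (limma adjusted p = 0.02). Insig2, its relative, fell in RA by a log2 difference of -0.23 ± 0.068 (limma adjusted p = 0.00678) and was not called in WT, at -0.11 ± 0.068 (limma adjusted p = 0.156). The RA call of Insig2 was lost without RA starved replicate 1 (limma adjusted p = 0.0512), and the WT response was called lower without WT normal replicate 2 (limma adjusted p = 0.0495) and with total-read scaling (limma adjusted p = 0.0314).

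Among the transport and efflux genes, Stard4, a carrier of cholesterol between membranes, behaved like the enzymes. Its values were 87.7 and 83.6 in fed WT, 16.7 and 18.9 in starved WT, 76.8 and 72.5 in fed RA and 31.1 and 31.03 in starved RA. Starved WT cells kept 20.8% and starved RA cells 41.6%, with no overlap of the starved groups, and the interaction was 0.97 ± 0.084 (limma adjusted p = 7.35e-08). Abca1, the cholesterol exporter that liver X receptors switch on, had low values of 3.28 and 2.50 in fed WT, 2.85 and 2.89 in starved WT, 4.32 and 3.57 in fed RA and 4.97 and 4.54 in starved RA. Neither response of Abca1 was called, at -0.0012 ± 0.13 (limma adjusted p = 0.993) in WT and 0.22 ± 0.13 (limma adjusted p = 0.139) in RA. Abcg1, another exporter, did not pass the filter, with 24 and 16 reads in fed WT, 6 and 6 in starved WT, 16 and 20 in fed RA and 7 and 30 in starved RA. The starved RA replicates of Abcg1 differed more than the groups did.

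All 8 genes of fatty acid synthesis fell in both genotypes, with 5 higher interactions and 1 lower. Elovl6, which lengthens palmitate, had values of 114 and 109 in fed WT, 4.44 and 4.93 in starved WT, 94.1 and 86.7 in fed RA and 9.87 and 9.91 in starved RA. Every starved sample was far below every sample in normal medium, and starved RA lay above starved WT. Elovl6 changed by -4.31 ± 0.065 (limma adjusted p = 1.11e-18) in WT and -3.07 ± 0.065 (limma adjusted p = 3.09e-16) in RA, with an interaction of 1.24 ± 0.093 (limma adjusted p = 1.13e-08). It kept 4.20% of its value in WT and 10.9% in RA. Scd2, a desaturase that makes monounsaturated fatty acids, had values of 1305 and 1320.0 in fed WT, 123 and 121 in starved WT, 1033 and 1045 in fed RA and 333 and 351 in starved RA. Scd2 changed by -3.42 ± 0.038 (limma adjusted p = 4.75e-20) in WT and -1.60 ± 0.038 (limma adjusted p = 9.46e-16) in RA, and its interaction of 1.82 ± 0.053 (limma adjusted p = 4.89e-14) was the largest of the 33 genes. Scd1, its close relative, had values of 214 and 210.1 in fed WT, 70.3 and 69.7 in starved WT, 207 and 204 in fed RA and 109 and 112 in starved RA, with an interaction of 0.69 ± 0.053 (limma adjusted p = 1.61e-08). Starved RA samples lay above starved WT samples in both desaturases. Scd1 and Scd2 are similar in sequence, so reads could have been split between them and each value is uncertain to that extent.

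Acly, which makes cytosolic acetyl-CoA from citrate, had values of 245 and 248 in fed WT, 137 and 130.4 in starved WT, 239.7 and 238 in fed RA and 149.8 and 149 in starved RA. It kept 54.2% in WT and 62.5% in RA, with an interaction of 0.20 ± 0.053 (limma adjusted p = 0.00419). Acaca, the carboxylase that commits acetyl-CoA to fatty acids, kept 46.6% in WT and 57.8% in RA, with an interaction of 0.31 ± 0.076 (limma adjusted p = 0.00291). The starved RA samples lay above the starved WT samples in both genes, by a small margin. Fasn, the synthase that builds palmitate, had values of 348 and 344 in fed WT, 244 and 225 in starved WT, 306 and 321 in fed RA and 177 and 173 in starved RA. Here the starved RA samples were the lowest of the 4 groups. Fasn changed by -0.56 ± 0.042 (limma adjusted p = 1.66e-09) in WT and -0.84 ± 0.042 (limma adjusted p = 1.56e-11) in RA, with an interaction of -0.28 ± 0.059 (limma adjusted p = 0.00103), so it fell more in RA. Fads2 and Fads1, the desaturases of polyunsaturated fatty acids, fell in both genotypes and had interactions that were not called. Fads2 values were 72.8 and 73.8 in fed WT, 22.7 and 20.9 in starved WT, 69.8 and 73.7 in fed RA and 22.7 and 21.9 in starved RA, and its interaction was 0.066 ± 0.078 (limma adjusted p = 0.507). Fads1 kept 75.5% in WT and 76.9% in RA, with an interaction of 0.027 ± 0.06 (limma adjusted p = 0.737).

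**Figure D4:**
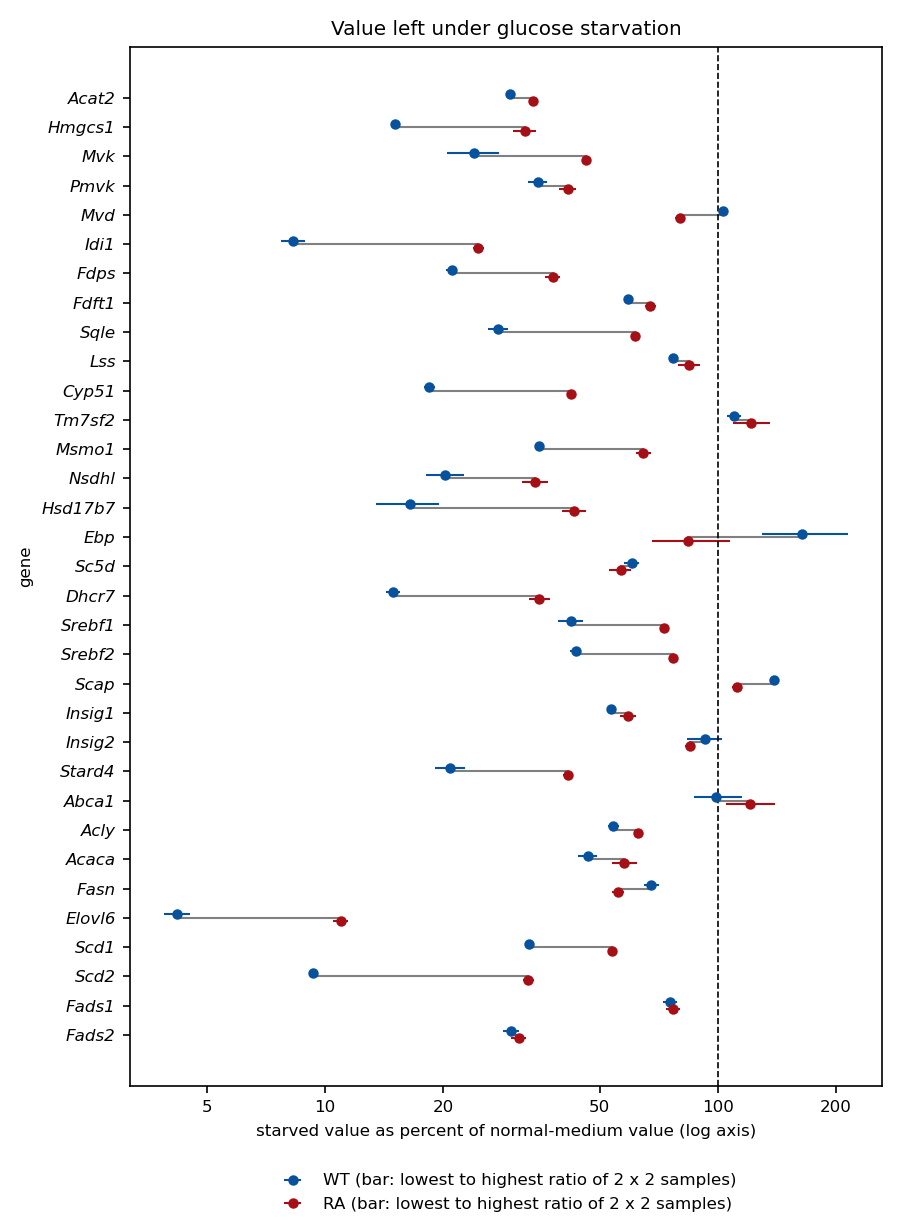
Starved value as a percent of the normal-medium value (log x axis) for the 33 tested genes, in WT and in RA. Bars run from the lowest to the highest ratio of the 2 starved over the 2 normal-medium samples. The WT point lies left of the RA point in most genes, with 4.20% against 10.9% in Elovl6 and 9.30% against 32.9% in Scd2, and right of it in Mvd, Ebp, Sc5d, Scap, Insig2 and Fasn.

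By role, the median gene kept 23.9% of its normal-medium value in WT and 38.0% in RA among the mevalonate steps, 35.0% and 61.4% in the sterol branch, 53.4% and 77.0% among the SREBP regulators, and 39.8% and 54.8% in fatty acid synthesis. The order of the roles was not tested.

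In normal medium the called differences between the genotypes were small, and all were lower in RA. None of the 33 genes was called higher in RA than in WT, where 6.68% of all tested genes were, and 8 were called lower, where 2.95% were. At an unadjusted limma p under 0.05 1 gene, Abca1, was higher and 18 were lower, and edgeR and DESeq2 on the recovered reads called 0 and 0 higher and 7 and 9 lower. The 8 were Hmgcs1, Mvd, Lss, Msmo1, Stard4, Fasn, Elovl6 and Scd2. Scd2 had the largest difference, -0.34 ± 0.038 (limma adjusted p = 1.17e-05), which corresponds to 79.1% of the WT value. Elovl6 differed by -0.30 ± 0.065 (limma adjusted p = 0.00749), and the other 6 by -0.14 to -0.20. Both RA samples lay below both WT samples in 26 of the 34 genes, above them in 2 and overlapped in 6, with no count over all genes to set beside this. The count of 8 depended on the scaling, the test and the samples. It was 15 with values scaled to total reads, where the share of higher calls among all called genes moved from 69.4% to 40.5%, 2 without the mean-variance trend and 1 with no filter on low values, and it was 1 without WT normal replicate 1, 2 without WT normal replicate 2, 5 without RA normal replicate 1, 3 without RA normal replicate 2 and 4 without either starved RA replicate. Of the 8, Scd2 alone was called under every alternative run at a limma, edgeR or DESeq2 adjusted p under 0.05.

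Under starvation the genotypes differed in most of the genes. RA was called higher than WT in 19 of 33 and lower in 5, namely Mvd, Ebp, Sc5d, Scap and Fasn, against 30.8% higher and 32.1% lower over all tested genes. The median log2 difference of the members was 0.55, against -0.00806 over all tested genes. Both RA samples lay above both WT samples in 24 of the 34 genes, below them in 6 and overlapped in 4, and the share over all genes was not counted. Scd2 stood at 280.2% of the WT value, with a log2 difference of 1.48 ± 0.038 (limma adjusted p = 1.82e-15), and Idi1 at 271%, with 1.39 ± 0.05 (limma adjusted p = 2.25e-13). Hsd17b7 differed by 1.17 ± 0.11 (limma adjusted p = 8.49e-08), Cyp51 by 1.09 ± 0.041 (limma adjusted p = 5.04e-13) and Sqle by 1.05 ± 0.044 (limma adjusted p = 2.04e-12). Abca1, whose responses were not called, was also higher in starved RA, by 0.57 ± 0.13 (limma adjusted p = 0.0011). Fasn stood at 74.7% and Mvd at 68.6% of the WT value. This comparison and the interaction share the starved samples and are not separate evidence. The calls of Acaca and Sc5d were lost without WT starved replicate 2 (limma adjusted p = 0.139 and 0.16) or RA starved replicate 2 (limma adjusted p = 0.138 and 0.213), and also with no filter (limma adjusted p = 0.0549 and 0.0582) and without the mean-variance trend (limma adjusted p = 0.0649 and 0.0712).

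**Figure D5:**
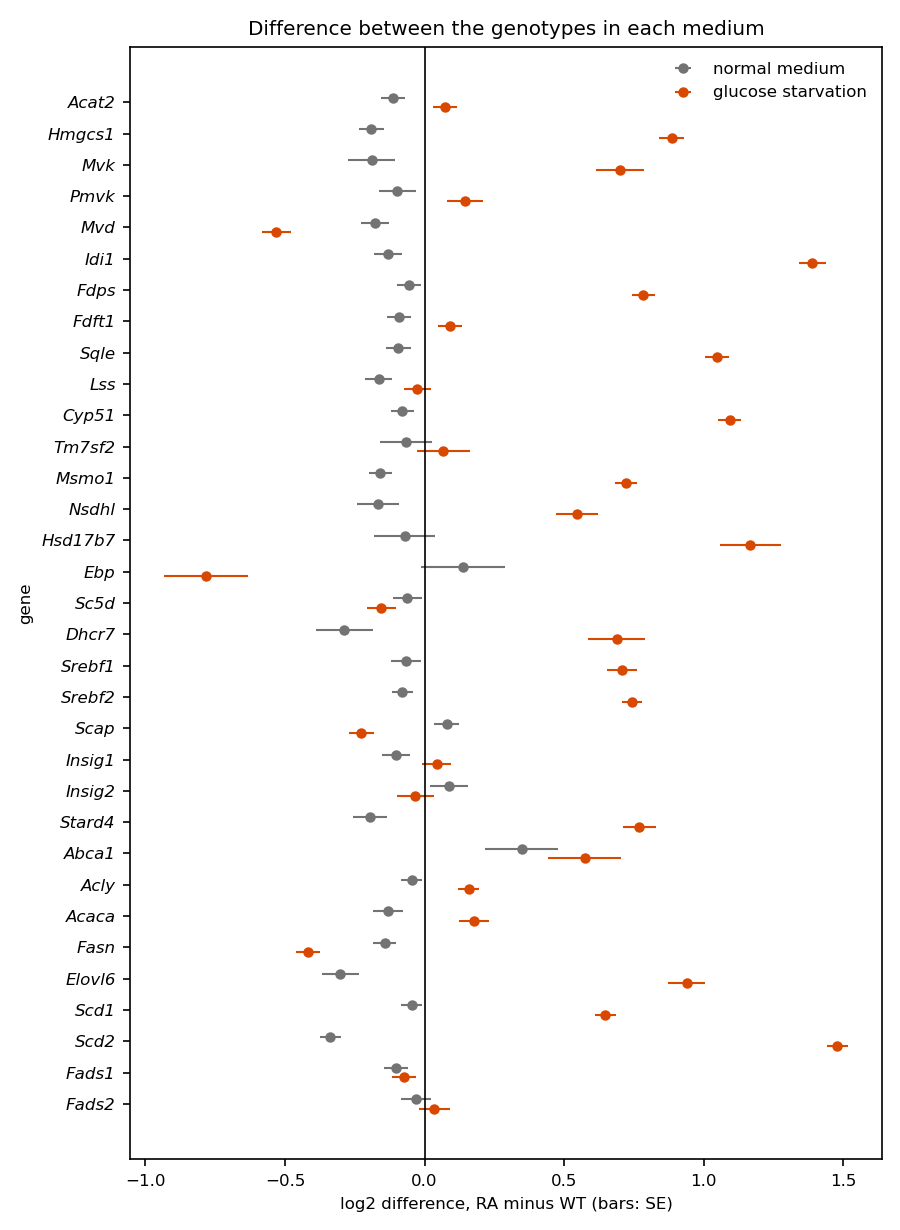
Log2 difference of RA minus WT (x axis, bars of 1 SE) for the 33 tested genes in normal medium (grey) and under glucose starvation (orange). Grey points lie between -0.34 and 0.35, most of them below 0. Orange points run from -0.78 in Ebp to 1.48 in Scd2.

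Other genes of lipid metabolism did not share one direction. Of 48 further genes of the neighbouring steps, 44 were tested. In WT 13 rose and 27 fell, where 39.3% of all tested genes were called higher and 39.2% lower. In RA 15 rose and 18 fell, where 35% were called higher and 33.7% lower, and the interaction was higher for 10 and lower for 8, where 24.5% and 26.1% were. The lower calls stood above the background, by more in WT than in RA, the higher calls in RA and in the interaction lay close to it, and the higher calls in WT and the lower calls in the interaction lay below it. The median over the 44 was -0.25 for the WT response and -0.0798 for the RA response. Vldlr, a receptor for lipoproteins rich in triglyceride, had values of 10.7 and 9.997 in fed WT, 82.5 and 77.8 in starved WT, 14.5 and 12.7 in fed RA and 87.2 and 87.6 in starved RA. It rose in both genotypes, by 2.84 ± 0.066 (limma adjusted p = 2.09e-16) in WT and 2.60 ± 0.066 (limma adjusted p = 2.21e-15) in RA, and both starved groups lay far above both normal-medium groups. Dgat2, which makes triglyceride, rose as well, by 1.68 ± 0.084 (limma adjusted p = 6.78e-12) in WT and 1.39 ± 0.084 (limma adjusted p = 1.8e-10) in RA. Fabp5, a carrier of fatty acids, fell, with log2 differences of -1.56 ± 0.04 (limma adjusted p = 6.4e-16) in WT and -1.10 ± 0.04 (limma adjusted p = 2.1e-13) in RA, and Idh1, a cytosolic source of NADPH, fell, at -1.42 ± 0.072 (limma adjusted p = 8.67e-12) in WT and -1.33 ± 0.072 (limma adjusted p = 4.79e-11) in RA. Scd3, a relative of Scd1 with low values that may share its reads, fell, at -1.18 ± 0.13 (limma adjusted p = 3.65e-07) in WT and -1.10 ± 0.13 (limma adjusted p = 1.36e-06) in RA.

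The further genes with the highest interaction were Mcat, the malonyltransferase of mitochondrial fatty acid synthesis, and Cyb5r3, the reductase that passes electrons to desaturases. Mcat had values of 25.96 and 26.02 in fed WT, 10.5 and 10.8 in starved WT, 29.1 and 26.8 in fed RA and 21.2 and 22.5 in starved RA. Starved RA lay above starved WT without overlap, and the interaction of Mcat was 0.88 ± 0.098 (limma adjusted p = 1.55e-06). Cyb5r3 had values of 368 and 373 in fed WT, 212 and 220.2 in starved WT, 389 and 407 in fed RA and 346 and 339.7 in starved RA, with an interaction of 0.56 ± 0.053 (limma adjusted p = 2.2e-07). The lowest interactions were in Nr1h3, which encodes a liver X receptor and had values under 2, at -0.56 ± 0.19 (limma adjusted p = 0.0227), and in Tmem97, a sterol-responsive membrane protein, at -0.36 ± 0.073 (limma adjusted p = 0.000687). Under starvation Osbp, an oxysterol-binding protein, was lower in RA, at a log2 difference of -0.42 ± 0.049 (limma adjusted p = 1.27e-06), as was Pcyt2, of phosphatidylethanolamine synthesis, at -0.41 ± 0.051 (limma adjusted p = 2.45e-06). Pcyt2 was also lower in normal medium, at -0.48 ± 0.051 (limma adjusted p = 7.98e-06).

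The pattern of the sterol enzymes over the samples was matched closely by genes outside the list. The mean z-score of the 18 enzymes was 0.757 and 0.856 in fed WT, -0.853 and -0.826 in starved WT, 0.503 and 0.661 in fed RA and -0.545 and -0.554 in starved RA. The genes most like it over the 8 samples were Cep70, a centrosomal protein (Pearson r 0.999), Naa15, a subunit of an N-terminal acetyltransferase (0.999), and Cdc25c, a cell cycle phosphatase (0.998). Cdc25c had values of 28.1 and 26.7 in fed WT, 7.65 and 7.82 in starved WT, 21.9 and 23.8 in fed RA and 9.26 and 9.52 in starved RA.

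Other cell type markers moved with the starvation comparison. All 8 fibroblast markers were present, and their summed value was 10879 to 10982 in fed WT, 5561 to 5647 in starved WT, 10811 to 11156 in fed RA and 7320 to 7335 in starved RA. The sum was therefore lower under starvation in both genotypes and lower in starved WT than in starved RA. The 8 markers did not move as 1. Col1a1, Col1a2, Col3a1, S100a4 and Vim fell in both genotypes, and the interaction of the first 4 was higher, while Vim fell more in RA (interaction -0.34 ± 0.072, limma adjusted p = 0.00101). Thy1 and Pdgfrb fell in WT and were not called in RA, and Fn1 was not called in WT and rose in RA, by 0.42 ± 0.048 (limma adjusted p = 6e-07). The 7 adipocyte markers summed to 7.58 to 7.87 in fed WT, 13.1 to 14.2 in starved WT, 7.86 to 9.46 in fed RA and 15.7 to 16.8 in starved RA, almost all of it Pparg, the 1 marker at a value of 1 or more in 2 samples. The 5 macrophage markers summed to 18.2 to 21.8 over the 8 samples, with Ptprc at or under 0.0392. Within that sum Csf1r rose, by 0.80 ± 0.077 (limma adjusted p = 4.52e-08) in WT and 0.38 ± 0.077 (limma adjusted p = 3e-04) in RA, and Cd14 fell, at -2.05 ± 0.11 (limma adjusted p = 2.22e-11) in WT and -1.20 ± 0.11 (limma adjusted p = 5.36e-08) in RA. The 4 endothelial markers summed to 2.52 to 3.39 in fed WT, 8.92 to 9.43 in starved WT, 2.02 to 3.43 in fed RA and 5.99 to 6.34 in starved RA. Within that sum Kdr rose in both genotypes and Tek in WT, while Pecam1 and Cdh5 were under 1 in every sample and were not tested. The means of Pecam1 in fed and starved WT were 0.390 and 0.0693, and those of Cdh5 were 0.295 and 0.021, so these 2 markers did not share the rise. The 4 epithelial markers summed to 1.43 to 2.06 in fed WT, 1.84 to 2.12 in starved WT, 1.84 to 1.94 in fed RA and 2.68 to 3.21 in starved RA, and the 4 hepatocyte markers to at most 0.168. The part of these marker levels in the results was not tested.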

How the data were processed

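PolyA libraries (TruSeq v2 kit) were sequenced from both ends, and the authors mapped the reads with TopHat2 (version 2.0.9, per the labels) to mm9, and bedtools and edgeR are also named there. The read counter, annotation and handling of strand are not given in the sources used here. The deposited table has 49492 gene symbols, and its unit is a signal: the count of reads over a scaled library size, in CPM. The columns named minus and plus were read as normal medium and starvation, as the study marks them. The planned unit was plain CPM, and the test stayed as planned. In each sample 100% of the values were whole reads, and 78.2% to 80.5% of small counts were even, as when both mates are counted.

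The tests used limma (version 3.58.1, R version 4.3.3) on log2(value + 1) with 1 mean for each group, all 8 samples in 1 fit, moderated variances that follow a trend on the mean, and Benjamini-Hochberg adjustment of 2-sided p-values over the 16232 genes that reached a value of 1 in 2 or more samples. The 5 contrasts were starvation against normal medium in WT and in RA, their difference (RA less WT), and RA minus WT in each medium. The steps were checked on simulated counts. Alternatives changed the pseudocount to 0.1, the filter, the scaling, the samples in the fit, the trend and the threshold, left out each sample, added the replicate number as a block, and used the recovered reads in DESeq2 (version 1.42.0) and in edgeR (version 4.0.16).

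All 34 members are described. From 48 further lipid genes, those named had the 2 highest or 2 lowest called log2 differences in a response, in the interaction or in starved RA minus WT, and the 3 genes most like the sterol enzymes were taken by Pearson r. The members and lists were chosen with earlier results of these data known. Exon overlaps came from GENCODE M21 (GRCm38) and promoters from RefSeq (GRCm38.p6), builds other than that of the files. Promoter entries were matched for 26 of 34 members.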

Additional observations from a re-analysis of the deposited data

Results flagged for a closer look

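WT and RA responded differently to starvation in 25 of the 33 tested genes by a test of the difference itself, the interaction term in limma at an adjusted p under 0.05. A called interaction was common in the whole table, in 8207 of 16232 tested genes, with 24.5% called higher and 26.1% lower. Values are the log2 response in RA less that in WT. Among the genes of the mevalonate steps it was 1.52 in Idi1, 1.08 in Hmgcs1, 0.889 in Mvk, 0.84 in Fdps, 0.243 in Pmvk and 0.186 in Acat2. Among the genes of the sterol branch it was 1.24 in Hsd17b7, 1.17 in Cyp51, 1.14 in Sqle, 0.975 in Dhcr7, 0.879 in Msmo1, 0.712 in Nsdhl and 0.185 in Fdft1. Among the genes of SREBP regulation and sterol transport it was 0.965 in Stard4, 0.821 in Srebf2 and 0.774 in Srebf1. Among the genes of fatty acid synthesis it was 1.82 in Scd2, 1.24 in Elovl6, 0.694 in Scd1, 0.307 in Acaca and 0.204 in Acly. It was below 0 in 4 genes, at -0.919 in Ebp, -0.353 in Mvd, -0.306 in Scap and -0.275 in Fasn. In Mvd the WT samples lay higher and the RA samples lower under starvation, and in Ebp both starved WT samples lay above every RA sample. The starved and fed RA samples of Ebp overlapped. No group holds enough samples for a test of single outlying samples.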

How the results depend on the processing

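The study set a false discovery rate of 1e-05 in edgeR, for WT against RA in each medium. Here an adjusted p under 1e-05 was applied to the limma results of all 5 contrasts. The WT response came to 1 member higher, 27 lower and 7399 genes in all. For the RA response it was 0 members higher, 26 lower and 4961 genes. For the interaction it was 13 members higher, 0 lower and 1764 genes. RA minus WT came to 0 members higher, 0 lower and 141 genes in normal medium. Under starvation RA minus WT came to 15 members higher, 2 lower and 3596 genes. The count of members lower in RA in normal medium, 8 by the reported fit, was 1 with no filter, 2 without the mean-variance trend and 15 with total-read scaling, and the 1563 genes called there became 650 with no filter and 590 without the trend. When each sample was left out in turn, the members lower in RA in normal medium ranged from 1 to 8 and all genes called there from 559 to 1706 (559 without WT normal replicate 1, 830 without WT normal replicate 2 and 939 without RA normal replicate 2), and the members higher in the RA response from 0 to 2. Without RA starved replicate 2 none rose in RA by limma, and without RA normal replicate 1 there was 1. Of 2937 results of single members under the alternatives, 2814 stayed on their side of the threshold, 104 lost the call, 19 gained one, and 0 called values changed direction. On the recovered reads edgeR called 12694 genes in the WT response, 11111 in the RA response, 8153 in the interaction, 1594 in normal medium and 10222 under starvation. Same-numbered samples deviated together only weakly, with correlations from -0.00764 to 0.157 over 6 pairs of groups, with 2 of the 6 above 0.1. Neither the labels nor these correlations were enough to treat the numbers as pairs. With the replicate block the genes called in RA minus WT in normal medium came to 2059, and the call of 1 member changed, Ebp in the RA response (limma adjusted p = 0.0481), and 164 of 165 results of members kept theirs. Abcg1, which had 6 to 30 reads, did not pass the filter on low values and was not tested.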
